A study of Schizosaccharomyces pombe with 21 samples.

Results

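The transcriptome of wild-type fission yeast after 1 h without phosphate was compared with that of the same strain at 0 h, using 6 of the 21 libraries in the series, 3 biological replicates per time. Both groups were the h- wild-type strain Sp1 in vegetative growth, with the genotype given as WT. The 1 h cultures had been shifted out of phosphate-replete ePMGT medium in log phase and held in ePMGT lacking phosphate. The 0 h cultures were in log phase in the replete ePMGT medium. The members were all genes counted in these libraries: 6066 of the 6988 gene identifiers passed the filter on low counts and were tested. The libraries are of polyA RNA, paired-end, from a stranded kit. The other libraries of the series are the wild type at 2 h and 4 h, used here for the spread between replicates and as later reference points, and 9 libraries of a mutant strain that enter only one alternative fit. A transfer to fresh medium with phosphate was not among the groups analysed, so the loss of phosphate and the change of medium cannot be told apart in any result given here. In bulk RNA, fewer cells expressing a gene and less RNA per cell cannot be told apart either.

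Fission yeast answers a lack of phosphate by raising genes for its uptake from outside the cell. They encode a secreted acid phosphatase that frees phosphate from organic compounds, transporters for phosphate, and a transporter for glycerophosphodiesters. In replete cells these genes are held down by transcription of long non-coding RNAs that run across their promoters, and inositol pyrophosphates, which turn over with the phosphate status of the cell, act on the termination of those RNAs. The transcription factor Pho7 activates the genes. Outside this regulon, permeases, metal uptake genes and nucleotide salvage genes of this yeast each answer to the supply of their own nutrient.

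The 1 h libraries held 20429347, 17481009 and 18433913 counts and the 0 h libraries 16593476, 21436751 and 19863620, of which protein-coding genes took 98.8% to 99.0% in each. Levels are given in CPM, a gene's counts relative to the scaled total of its library. Replicates correlated across genes on log2 CPM at 0.995 to 0.997 within 1 h and at 0.985 to 0.995 within 0 h. The 0 h libraries were thus the more spread group, and 0 h replicate 3 stood on the first principal component at -13.0, beside the 1 h libraries at -14.9, -14.5 and -17.8 and apart from the other 0 h libraries at -34.0 and -27.6. The M-cell pheromone gene mfm2 had 211, 242 and 207 CPM at 1 h and 144, 182 and 217 CPM at 0 h. The M-cell pheromone genes mfm1 and mfm3 were scarce, at 4.96 to 6.61 CPM and 1.31 to 1.92 CPM over the 1 h and 0 h libraries. Over the same libraries the M-cell gene mam1 had 67.02 to 113.6 CPM and the M-cell receptor gene mam2 had 15.7 to 25.5 CPM. The P-cell genes were not at 0. The P-factor gene map2 had 2.70 to 3.36 CPM at 1 h against 5.86 to 6.66 CPM at 0 h (log2 fold change -1.05, adjusted p = 0.00352, lost at 0.199 with all 21 libraries in the fit), and the M-factor receptor gene map3 had 14.5 to 18.5 CPM against 12.7 to 16.2 CPM. The M mating-type gene mat1-Mc had no counts in any of the 6 libraries, nor had the nucleotide synthesis gene ura4.

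At adjusted p under 0.05 and at least a 2-fold difference, 168 genes were called (2.77% of those tested): 66 genes were higher at 1 h (1.09%) and 102 were lower (1.68%). All adjusted p-values here are Benjamini-Hochberg values over the genes tested from edgeR's quasi-likelihood test. Members of gene lists and single genes are called at the adjusted p alone, and on that rule 1073 genes passed (17.7%), of which 610 genes were higher (10.1%) and 463 lower (7.63%). All 1 h libraries lay above all 0 h libraries for 18.1% of the genes tested and below them for 14%. The counts at the adjusted p alone moved with single libraries. Higher genes numbered 1061 without 0 h replicate 3, 325 without 0 h replicate 2, 333 without 1 h replicate 1 and 347 without 1 h replicate 2, and lower genes 264 without 1 h replicate 1. Counts of 1 or 2 genes in a list often changed with a single library left out. Protein-coding genes made up 28 of the 66 higher genes and 78 of the 102 lower ones, from 4968 tested. Non-coding RNAs made up 37 and 24, from 1094 tested. The median log2 fold change was -0.02 over coding genes and 0.13 over non-coding RNAs.

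**Figure D1:**
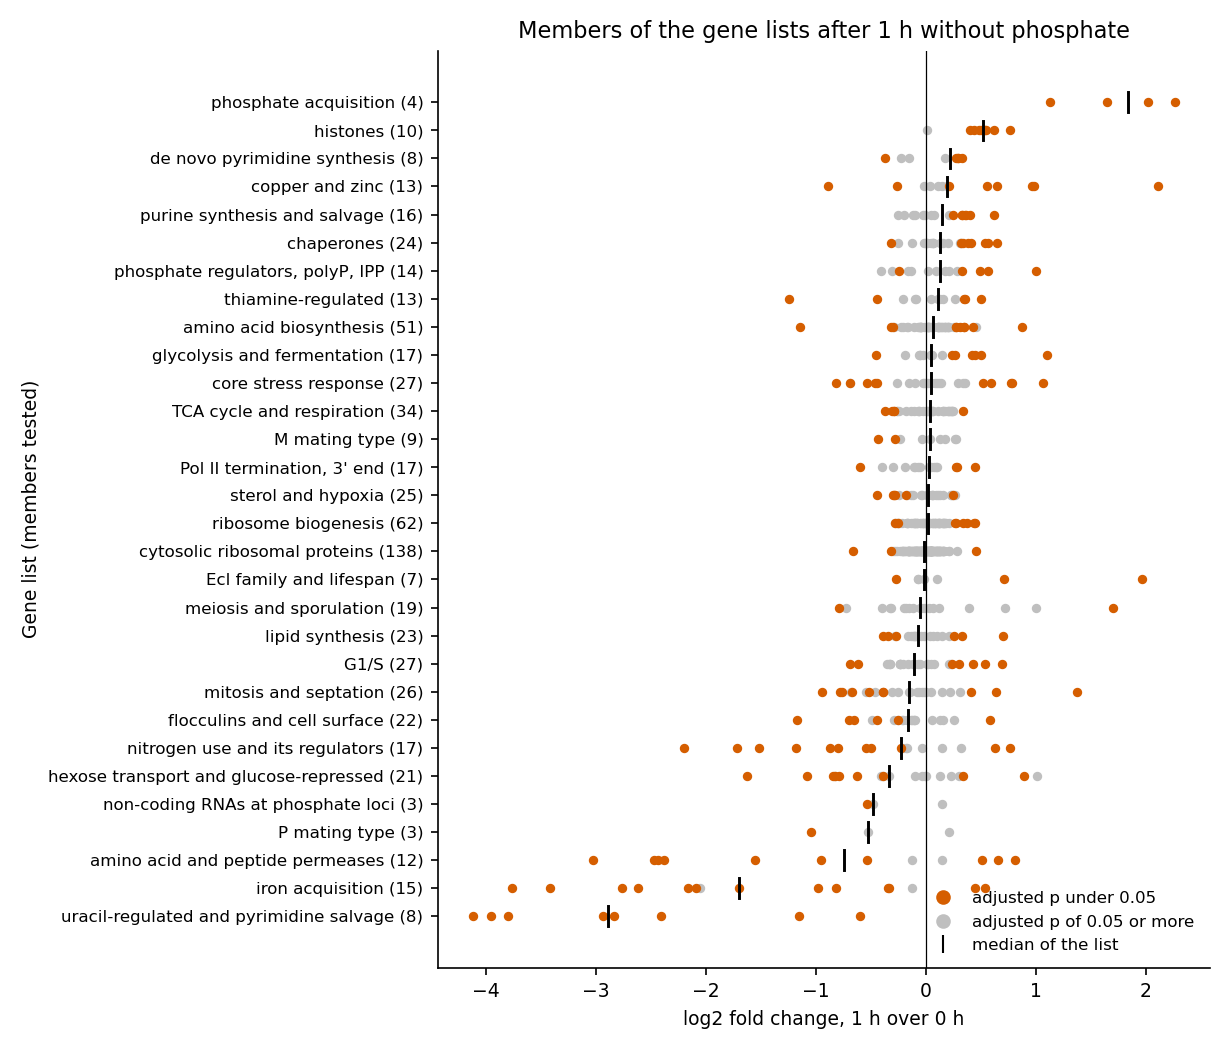
Log2 fold change of each tested member of the 30 gene lists, 1 h over 0 h in wild-type cells (x axis), with lists ordered by their median (black bar) and the number of members tested in brackets; orange points have adjusted p under 0.05 and grey points do not. The 4 phosphate acquisition genes lie at 1.13 to 2.26, and the 8 uracil-regulated and pyrimidine salvage genes lie at -4.11 to -0.60.

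The phosphate acquisition genes were all higher after the first hour, by 2.18-fold to 4.80-fold. The glycerophosphodiester transporter gene tgp1 (SPBC1271.09, chromosome II) had 273, 307 and 262 CPM at 1 h, against 53.4, 54.4 and 67.7 CPM at 0 h. The acid phosphatase gene pho1 (SPBP4G3.02, chromosome II) had 5287, 5869 and 5034 CPM at 1 h, against 1177, 1401 and 1404 CPM at 0 h. Every 1 h library lay above every 0 h library for both genes, and the 3 replicates of each time were close. The log2 fold changes were 2.26 for tgp1 (SE 0.10, adjusted p = 1.5e-08, edgeR) and 2.02 for pho1 (SE 0.09, adjusted p = 2.44e-08, edgeR).

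The phosphate transporter genes rose as well. The gene pho842 (SPAC23D3.12, chromosome I) had 1088, 1164 and 1120.0 CPM at 1 h and 352, 346 and 376 CPM at 0 h. The gene pho84 (SPBC8E4.01c, chromosome II), which encodes the high-affinity phosphate transporter, had 3165, 3380.0 and 3028 CPM at 1 h and 1255, 1511 and 1619 CPM at 0 h. Neither gene's values overlapped between the times. Their log2 fold changes were 1.65 (SE 0.06, adjusted p = 3.4e-09) for pho842 and 1.13 (SE 0.09, adjusted p = 2.98e-06) for pho84, both from edgeR. All 4 genes kept their calls under each alternative fit run, leave-one-out fits included, and their median log2 fold change of 1.84 stayed between 1.79 and 1.88 with any 1 library left out.

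For 3 of the 4 genes the rise went on into the second hour. Between 1 h and 2 h, tgp1 rose by a further 0.71 on the log2 scale (adjusted p = 0.000831, edgeR), pho1 by 0.71 (adjusted p = 0.000618) and pho84 by 0.63 (adjusted p = 0.00118). The gene pho842 instead fell by 0.21 (adjusted p = 0.0431), with 975 ± 20.1 CPM at 2 h and 1124 ± 38.4 CPM at 1 h (SD, n = 3 each). At 4 h pho842 had 1464 ± 29.3 CPM, above its 1 h level, a difference that was not tested. Over the 6066 genes tested, 5.09% were higher and 2.95% lower at 2 h than at 1 h.

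**Figure D2:**
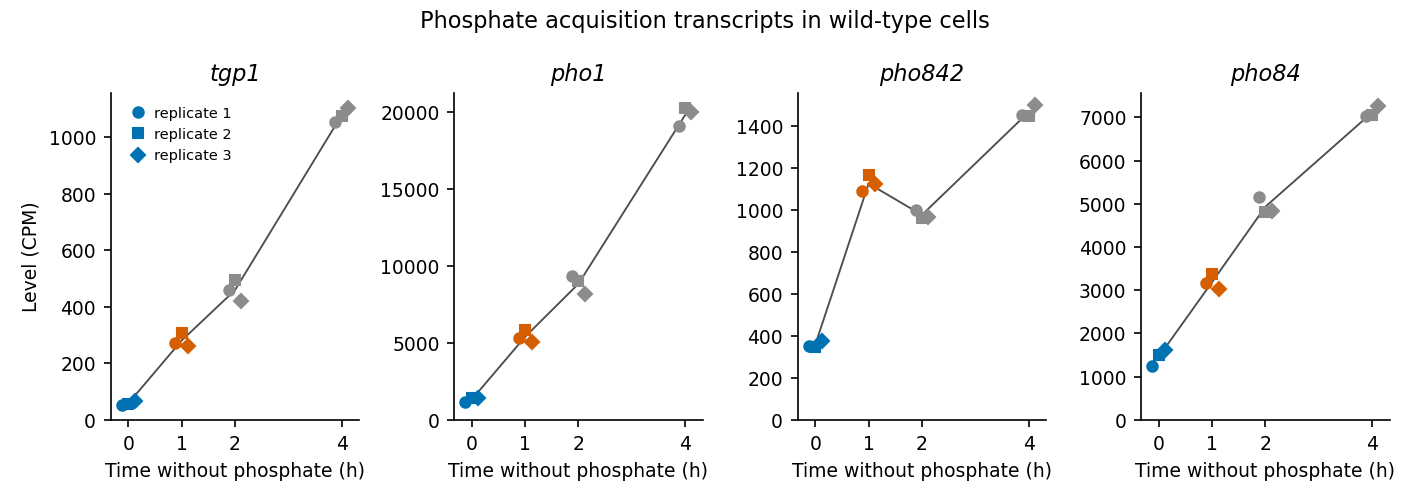
Level in CPM of 4 phosphate acquisition genes (y axis, from 0) against hours without phosphate (x axis) in each wild-type library, with replicates as circles, squares and diamonds, 0 h in blue, 1 h in orange, later times in grey and a line through the means. The 1 h points lie above all 0 h points in each panel, and pho842 alone has its 2 h points below its 1 h points.

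The non-coding RNAs at these loci were scarce and moved little. The RNA prt2, transcribed upstream of pho84, had 11.1, 9.22 and 8.99 CPM at 1 h and 13.4, 14.5 and 14.6 CPM at 0 h. Its 1 h values lay below all 0 h values, with a log2 fold change of -0.53 (SE 0.14, adjusted p = 0.0213, edgeR). That call was lost in a fit of the 6 libraries alone (adjusted p = 0.0543) and without 0 h replicate 2, 1 h replicate 2 or 1 h replicate 3. The RNA nc-pho1, upstream of pho1, had 1.18, 1.33 and 1.20 CPM at 1 h and 2.12, 1.63 and 1.44 CPM at 0 h, a difference of -0.48 on the log2 scale that did not pass (adjusted p = 0.197, edgeR). The RNA nc-tgp1 had 13.8, 14.3 and 13.7 CPM at 1 h and 12.2, 11.7 and 13.9 CPM at 0 h, with overlapping values (0.14, adjusted p = 0.568). The strand setting used in the counting is not given in the sources used here, so counts of these RNAs and of the genes they overlap cannot be fully separated.

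Among 14 regulators of phosphate use and enzymes of polyphosphate and inositol pyrophosphate metabolism, 4 rose and 1 fell. Without 0 h replicate 3 these counts were 6 and 3. The vacuolar transporter chaperone complex, which makes polyphosphate and moves it into the vacuole, supplied 3 of the 4. Its regulatory subunit gene nrf1 had 873, 858 and 808 CPM at 1 h, against 343, 419 and 505 CPM at 0 h (log2 fold change 1.00, adjusted p = 7.57e-05, edgeR). The subunit gene vtc2 had 735, 729 and 685 CPM at 1 h and 433, 474 and 543 CPM at 0 h (0.57, adjusted p = 0.000323), and vtc4, for the subunit that polymerises phosphate, had 309, 301 and 292 CPM and 199, 205 and 235 CPM (0.50, adjusted p = 0.000347). None of these 3 genes overlapped between the times, and 0 h replicate 3 was the highest 0 h library for each.

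The enzymes that make and break inositol pyrophosphates differed by 1.26-fold at most. The pyrophosphatase gene siw14 had 163, 156 and 153 CPM at 1 h and 111, 124 and 141 CPM at 0 h (0.33, adjusted p = 0.0204, edgeR). The inositol hexakisphosphate kinase gene kcs1 had 114, 123 and 120.4 CPM at 1 h and 147, 138 and 137 CPM at 0 h (-0.24, adjusted p = 0.0177). Neither pair of groups overlapped, but the call for kcs1 was lost without 1 h replicate 1 (adjusted p = 0.0878). That for siw14 was lost without 1 h replicate 1 (0.0867), 1 h replicate 2 (0.0591), 0 h replicate 1 (0.0529) or 0 h replicate 2 (0.0702). With all 21 libraries in the fit the adjusted p was 0.173 for kcs1 and 0.868 for siw14. The mutant strain in that fit is labelled as lacking siw14, so that fit cannot decide on the wild-type call for siw14. The kinase and pyrophosphatase gene asp1 (-0.16, adjusted p = 0.512), the Nudix hydrolase gene aps1 (0.17, adjusted p = 0.0859), the ubiquitin ligase gene pqr1 (0.21, adjusted p = 0.166) and the activator gene pho7 (-0.14, adjusted p = 0.396) did not pass. The phosphodiesterase gene gde1 stood at 0.29 (adjusted p = 0.077; 0.46 and 0.00012 without 0 h replicate 3) at 1 h and was 0.55 higher at 2 h than at 1 h (adjusted p = 0.00611).

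The largest differences of the hour ran downward, in genes that salvage pyrimidines and answer to uracil. The list has 8 genes, and all 8 fell, 7 of them by at least 2-fold, with a median log2 fold change of -2.88. The gene urg1 (SPAC1002.19, chromosome I), which encodes a GTP cyclohydrolase II family protein and whose promoter is in use as a uracil-controlled switch, had 438, 571 and 356 CPM at 1 h, against 6491, 8084 and 9062 CPM at 0 h. Its neighbour urg2, annotated as a putative uracil phosphoribosyltransferase, had 453, 559 and 369 CPM at 1 h and 5773, 7197 and 8439.6 CPM at 0 h. The highest 1 h library was more than 10-fold under the lowest 0 h library for both. The log2 fold changes were -4.11 for urg1 (SE 0.17, adjusted p = 1.03e-08, edgeR) and -3.96 for urg2 (SE 0.16, adjusted p = 1.03e-08).

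The other salvage genes followed with smaller differences. The uracil phosphoribosyltransferase gene uck2, which returns uracil to the nucleotide pool, had 54.2, 69.0 and 47.8 CPM at 1 h and 685, 839.5 and 852 CPM at 0 h (-3.80, adjusted p = 3.4e-09, edgeR). The gene urg3 stood at -2.83, the uridine ribohydrolase gene urh1 at -2.94 and the cytidine deaminase gene cdd1 at -2.40. The uridine kinase gene urk1 had 98.4, 99.9 and 88.7 CPM at 1 h and 190.2, 219 and 231 CPM at 0 h (-1.16, adjusted p = 1.94e-06), and the uracil permease gene fur4 stood at -0.60 (adjusted p = 0.000217). All 8 genes had 1 h values below every 0 h value, and all kept their calls whichever library was left out.

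The genes urg2, urg3, urg1, toe1 and uck2 are consecutive coding genes on chromosome I, in that annotated order, and fur4 follows them. The gene toe1, which was singled out after its values were seen, had 44.6, 47.4 and 45.5 CPM at 1 h and 129, 151 and 169 CPM at 0 h (-1.71, adjusted p = 1.97e-07, edgeR). On the far side of urg2 the next gene, the transporter gene tna1, stood at 0.26 (adjusted p = 0.136), and the 7 genes beyond it stood between -0.51 and 0.19. Of these 7, ssd1 passed (-0.22, adjusted p = 0.0499), a call that was lost without 1 h replicate 1 (adjusted p = 0.208), 1 h replicate 3 (0.13), 0 h replicate 1 (0.093) or 0 h replicate 2 (0.105). Beyond fur4, SPAC1399.02 (-0.23, adjusted p = 0.0683) did not pass (it did without 0 h replicate 1, adjusted p = 0.026), and SPAC1399.06 (-0.81), SPAC1399.01c (-0.90) and SPAP11E10.01 (-0.92) fell, by less than 2-fold. The run of at least 2-fold falls thus ended at urg2 on one side and at uck2 on the other.

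**Figure D3:**
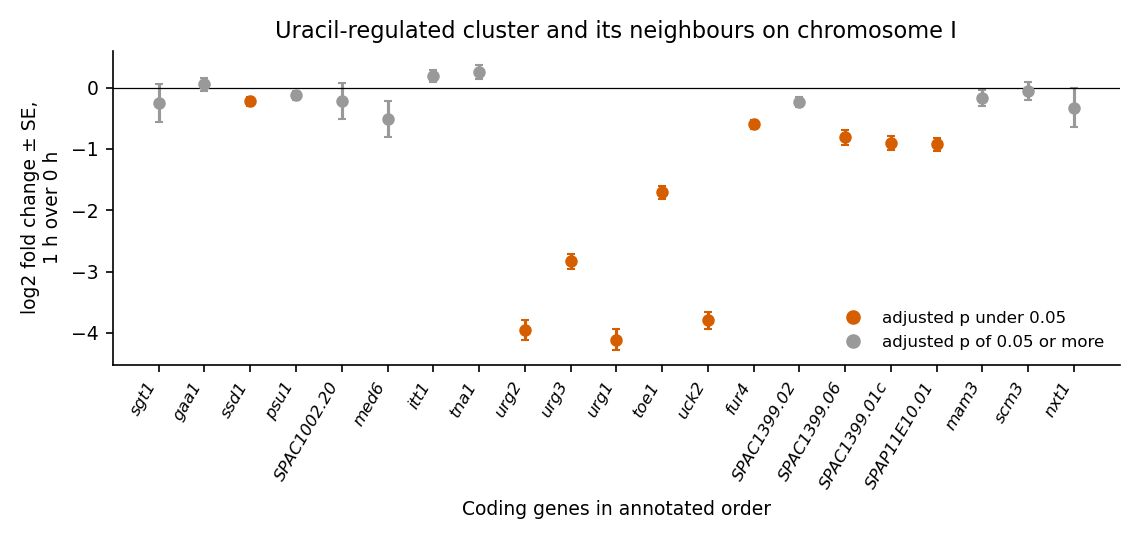
Log2 fold change with its standard error, 1 h over 0 h (y axis), for 21 consecutive coding genes of chromosome I centred on urg1 (x axis, gene order and not distance); orange points have adjusted p under 0.05. The 5 genes urg2 to uck2 lie at -1.71 or lower, between tna1 at 0.26 and fur4 at -0.60.

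By the second hour the genes with the largest falls had risen again. At 2 h urg1 had 2853 ± 165 CPM, against 455 ± 109 CPM at 1 h (SD, n = 3 each), which is 2.65 higher on the log2 scale (adjusted p = 9.07e-07, edgeR). The genes urg2 (2.57), uck2 (2.22), urg3 (1.65) and urh1 (1.08) were also higher at 2 h than at 1 h, so 5 of the 8 did so. The genes cdd1, urk1 and fur4 did not pass between 1 h and 2 h. At 4 h urg1 had 5718 ± 155 CPM.

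Small rises were found among genes for the new synthesis of pyrimidines and for the synthesis and salvage of purines. Of 8 de novo pyrimidine genes, 4 rose and 1 fell. The gene ura4 of the same pathway is not among the 8 and had no counts in any 1 h or 0 h library. The labels give the genotype only as WT, and why ura4 had no counts was not tested. The dihydroorotate dehydrogenase gene ura3 had 664, 658 and 649 CPM at 1 h and 485, 511 and 568 CPM at 0 h (0.33, adjusted p = 0.00308, edgeR), and ura5 (0.29), ura2 (0.30) and the deoxycytidylate deaminase gene dcd1 (0.27) were the others. The uridylate kinase gene ura6 fell by 0.37. The count of 4 was 2 without 1 h replicate 1, 1 h replicate 2 or 0 h replicate 2, and 1 with all 21 libraries in the fit. The call for ura3 was kept whichever library was left out, and those for ura5, ura2 and dcd1 were each lost without 1 or more of these 3 libraries. Of 16 purine genes 7 rose and none fell, the largest change being that of the synthesis gene ade7, with 376, 368 and 343 CPM at 1 h and 219, 229 and 257 CPM at 0 h (0.62, adjusted p = 0.000121). Purine salvage genes were among the 7, with hpt1 at 0.40, apt1 at 0.37 and the adenosine kinase gene ado1 at 0.35. With all 21 libraries in the fit 3 of the 16 rose, and 5 did without 1 h replicate 1, 1 h replicate 2 or 0 h replicate 2. Without 0 h replicate 1, 2 of the 16 fell, and without 0 h replicate 3, 1 fell and 8 rose.

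Iron acquisition genes made up the next group of falls. Of 15 genes 11 fell, 7 of them by at least 2-fold, 2 rose and 2 did not pass, with a median log2 fold change of -1.70. The ferric reductase gene frp1 (SPBC1683.09c, chromosome II), whose product reduces iron at the cell surface, had 54.4, 31.0 and 93.1 CPM at 1 h, against 640.2, 567 and 699.9 CPM at 0 h (-3.42, SE 0.60, adjusted p = 0.00207, edgeR). The siderophore transporter gene str3 had 13.4, 6.26 and 58.3 CPM at 1 h and 358, 329.6 and 371 CPM at 0 h (-3.76, SE 1.11, adjusted p = 0.0348). The iron permease gene fip1 had 66.4, 54.5 and 225 CPM at 1 h and 745, 714 and 880.0 CPM at 0 h (-2.76, SE 0.77, adjusted p = 0.0273). In each case all 1 h libraries were below all 0 h libraries, but 1 h replicate 3 was well above its 2 partners.

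Leaving out that library made the fitted falls larger. Without 1 h replicate 3 the log2 fold change was -5.15 for str3 (adjusted p = 0.0311, edgeR), -3.69 for fip1 (adjusted p = 0.0188) and -3.36 for the ferroxidase gene fio1 (adjusted p = 0.0325), against -2.62 for fio1 with all libraries (adjusted p = 0.0319). Leaving out one of the 2 other 1 h libraries ended these calls. Without 1 h replicate 1 they stood at -3.45 for str3 (adjusted p = 0.138), -2.48 for fip1 (adjusted p = 0.116) and -2.36 for fio1 (adjusted p = 0.131), and without 1 h replicate 2 the adjusted p was 0.122 for str3, 0.108 for fip1 and 0.122 for fio1. Without 0 h replicate 2 it was 0.0785 for str3, 0.0586 for fip1 and 0.0731 for fio1, and without 0 h replicate 1 it was 0.0602 for str3 and 0.0535 for fio1. The count of 11 iron genes was 5 without 1 h replicate 1, 5 without 1 h replicate 2 and 6 without 0 h replicate 2. The siderophore transporter gene str1 had 95.7, 69.5 and 296 CPM at 1 h and 619, 607 and 689.8 CPM at 0 h, did not overlap, and did not pass (-2.05, adjusted p = 0.149). It passed in a fit of the 6 libraries alone (adjusted p = 0.0143), and stood at -2.95 without 1 h replicate 3 (adjusted p = 0.104).

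Other members of the iron list varied less. The second ferric reductase gene frp2 had 3.54, 3.30 and 4.36 CPM at 1 h and 17.9, 13.7 and 18.7 CPM at 0 h (-2.16, adjusted p = 8.18e-05, edgeR). The gene php4, for the regulator that represses iron-using genes when iron is scarce, had 48.7, 49.4 and 75.9 CPM at 1 h and 102, 116 and 124 CPM at 0 h (-0.98, adjusted p = 0.0108), a call lost without 1 h replicate 1 (adjusted p = 0.0588) or 1 h replicate 2 (adjusted p = 0.0547). The vacuolar transporter gene abc3 stood at -1.70 (adjusted p = 0.00433). The 2 genes that rose were pcl1, for the vacuolar iron importer, with 307, 297 and 261 CPM at 1 h and 185, 213 and 198 CPM at 0 h (0.54, adjusted p = 0.000975), and the siderophore synthesis gene sib3 (0.45, adjusted p = 0.0117, and 0.0584 without 0 h replicate 2). The iron-sensing repressor gene fep1 did not pass (-0.12, adjusted p = 0.136).

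Several of these genes lie next to each other. The genes fip1 and fio1 are neighbours, and frp1 lies beside the hexose transporter gene ght4. The gene str3 lies between shu1 and hhy1, which were also lower by at least 2-fold (-2.09 and -1.98) but were scarce. Mean levels were 0.545 CPM at 1 h and 2.32 CPM at 0 h for shu1, and 1.30 CPM and 5.18 CPM for hhy1. Of the 78 coding genes lower by at least 2-fold, 36 had a directly neighbouring coding gene that was also lower by that much, while 3 of the 28 higher genes had such a neighbour. Those 3 form 1 run, ecl3, pho84 and pho1 on chromosome II. The lower runs include the permease gene SPBC359.01 with the alanine racemase gene alr2 and the transporter gene thi7 with urh1, which were singled out after their values were seen, as was hhy1. No single library could be left out without losing the call for shu1, with adjusted p between 0.0514 and 0.142. How often neighbours would share a call by chance was not tested.

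Of 13 copper and zinc genes 6 rose, and 2 fell, zrt1 and loz1 (-0.26, adjusted p = 0.0459). No more than 1 fell whichever library was left out, and none in a fit of the 6 libraries alone. The copper transporter gene ctr4 (SPCC1393.10, chromosome III) had 449, 147 and 178 CPM at 1 h, against 58.6, 60.8 and 59.8 CPM at 0 h (2.11, SE 0.42, adjusted p = 0.00413, edgeR). Here 1 h replicate 1 was the high library, and without it the log2 fold change was 1.45 (adjusted p = 0.0155). Its partner gene ctr5 had 256, 113 and 141 CPM at 1 h and 81.2, 86.8 and 93.4 CPM at 0 h (0.97, adjusted p = 0.0285), a call lost without 1 h replicate 1 (0.55, adjusted p = 0.144) and without 0 h replicate 1 (adjusted p = 0.0792) or 0 h replicate 2 (adjusted p = 0.0889). The superoxide dismutase gene sod1 stood at 0.65 (adjusted p = 0.00296) and the metallothionein gene zym1 at 0.98 (adjusted p = 0.000306). The count of 6 was 3 without 1 h replicate 1, 0 h replicate 1 or 0 h replicate 2.

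The zinc transporter gene zrt1 had 560.3, 434 and 1107 CPM at 1 h and 1223, 1288 and 1378 CPM at 0 h, again with 1 h replicate 3 high and no overlap. Its log2 fold change of -0.89 (adjusted p = 0.0455, edgeR) became -1.38 without that library (adjusted p = 0.00117). Each of the 5 other libraries, left out alone, ended the call, with adjusted p between 0.0717 and 0.173. What set 1 h replicate 3 apart for iron and zinc and 1 h replicate 1 for copper was not tested.

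**Figure D4:**
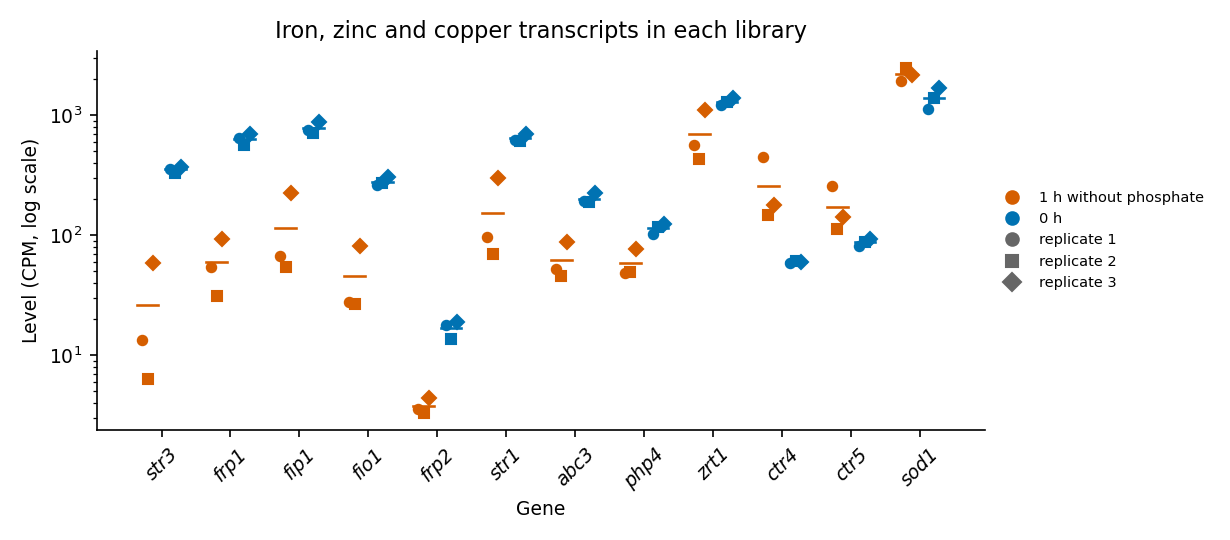
Level in CPM (log scale) of 12 iron, zinc and copper genes in each library, 1 h in orange to the left of 0 h in blue, with the 3 replicates as circle, square and diamond and bars at the group means. Replicate 3 is the highest 1 h library for the 8 iron genes and zrt1, and replicate 1 is the highest for ctr4 and ctr5.

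Permeases for nitrogen compounds formed another group of falls. Of 12 amino acid and peptide permease genes 7 fell and 3 rose, and 7 fell whichever library was left out. The oligopeptide transporter gene isp4 (SPBC29B5.02c, chromosome II) had 75.9, 114 and 75.1 CPM at 1 h, against 729, 729 and 691 CPM at 0 h (-3.02, SE 0.16, adjusted p = 1.1e-07, edgeR). The amino acid permease gene isp5 had 58.3, 76.8 and 49.1 CPM at 1 h and 282, 371 and 370.2 CPM at 0 h (-2.47, adjusted p = 5.58e-07). The permease gene per1 had 34.4, 43.4 and 31.6 CPM at 1 h and 193, 202 and 194 CPM at 0 h (-2.43, adjusted p = 2.81e-08). The groups did not overlap for any of these genes, and 1 h replicate 2 was the highest 1 h library for all of them.

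The permease gene nrg1 (-2.38), the proline transporter gene put4 (-1.55), the peptide transporter gene ptr2 (-0.95) and the vacuolar amino acid transporter gene fnx2 (-0.53) completed the fall. In the other direction, the basic amino acid permease gene cat1 had 171, 165 and 158 CPM at 1 h and 82.4, 88.9 and 111 CPM at 0 h (0.81, adjusted p = 0.000121, edgeR), and agp3 (0.51) and meu22 (0.66) also rose. The call for meu22 was lost without 1 h replicate 1 (adjusted p = 0.0847), 1 h replicate 2 (0.0822), 0 h replicate 1 (0.0646) or 0 h replicate 2 (0.0697), and that for agp3 with all 21 libraries in the fit (0.0694). By annotated product, 23 of 196 transporter and permease genes were lower by at least 2-fold, which is 11.7% of them, beside 1.15% of the other coding genes. Higher by at least 2-fold were 5 of the 196, which is 2.55%, beside 0.482% of the other coding genes. This grouping was made after the values were seen and was not tested. It takes in the spermidine family transporter gene mfs3, with 123, 149 and 119.9 CPM at 1 h and 680.1, 722 and 746 CPM at 0 h (-2.45, adjusted p = 5.33e-09), and the drug efflux pump gene bfr1 (-1.07), which was singled out after its values were seen.

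Genes for the use of nitrogen sources fell beside them, 9 of 17, while 2 rose. The arginase gene car1 had 118, 119 and 150.2 CPM at 1 h and 538, 601 and 632 CPM at 0 h (-2.20, adjusted p = 1.8e-05, edgeR). The glutamate dehydrogenase gene gdh1, which fixes ammonium into glutamate, had 863, 963 and 994 CPM at 1 h and 2531, 2656 and 2867 CPM at 0 h (-1.51, adjusted p = 3.83e-07). The ammonium transporter gene amt1 had 87.3, 103 and 70.1 CPM at 1 h and 197, 200.2 and 193 CPM at 0 h (-1.18, adjusted p = 1.63e-05). All 3 were without overlap between the times.

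Further falls were those of isp7 (-1.71), the proline dehydrogenase gene put1 (-0.87), the protease gene isp6 (-0.79), the glutamate synthase gene glt1 (-0.54), the glutamine synthetase gene gln1 (-0.49) and the GATA factor gene gaf1 (-0.23). The catabolic glutamate dehydrogenase gene gdh2 rose, with 97.5, 97.2 and 84.5 CPM at 1 h and 49.8, 56.4 and 74.4 CPM at 0 h (0.63, adjusted p = 0.0057, edgeR), as did amt3 (0.77). With all 21 libraries in the fit the calls for amt3 (adjusted p = 0.458) and gaf1 (0.181) were lost, and that for gaf1 also without 1 h replicate 1 (0.0668) or 1 h replicate 2 (0.0612). Without 0 h replicate 3, 4 of the 17 rose. By 2 h, 11 of the 17 genes were higher than at 1 h, among them car1 (1.05), amt1 (0.50), put1 (0.55), isp6 (0.62) and gln1 (0.39). The agmatinase genes SPBC8E4.03 (-1.48) and SPAPB24D3.03 (-1.23) and the uricase gene uro1 (-1.53) were also lower, and were singled out after their values were seen.

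**Figure D5:**
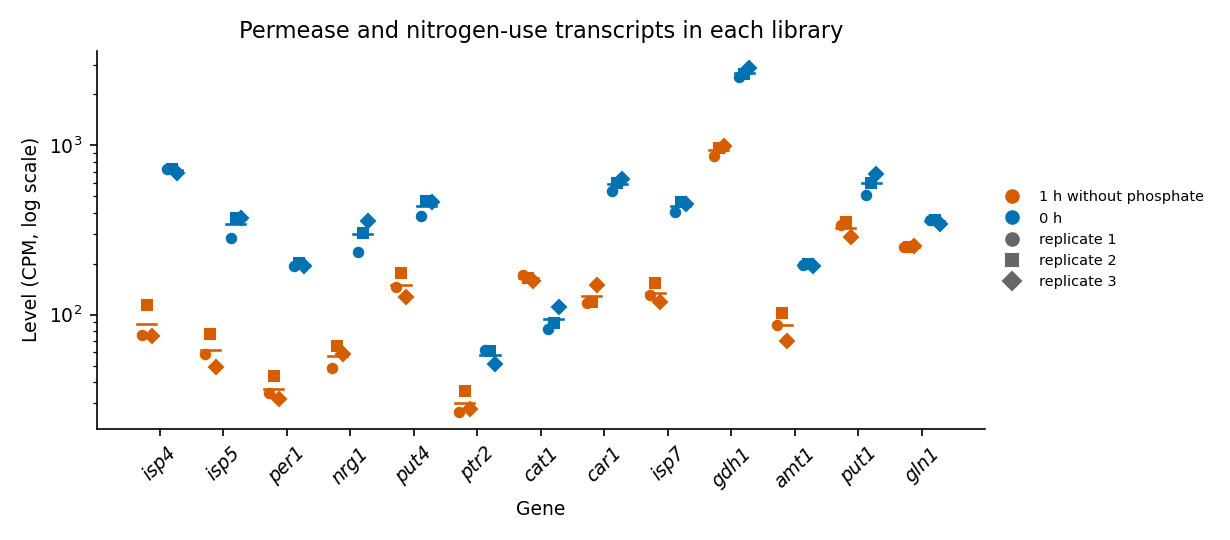
Level in CPM (log scale) of 13 permease and nitrogen-use genes in each library, 1 h in orange to the left of 0 h in blue, with the 3 replicates as circle, square and diamond and bars at the group means. All 1 h points lie below the 0 h points except for cat1, whose 1 h points lie between 158 and 171 CPM, above its 0 h points.

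Several hexose transporter genes fell as well. Of 21 genes for hexose uptake and the use of other carbon sources, 7 fell and 2 rose. The high-affinity glucose transporter gene ght5 had 245, 237 and 232 CPM at 1 h and 463, 539.9 and 510.1 CPM at 0 h (-1.08, adjusted p = 4e-07, edgeR). The gene ght4 had 25.8, 28.8 and 28.3 CPM at 1 h and 78.9, 86.7 and 90.2 CPM at 0 h (-1.63, adjusted p = 4e-07), and ght1 stood at -0.84. The abundant transporter gene ght8 did not pass (0.13, adjusted p = 0.265), but did without 0 h replicate 3 (0.20, adjusted p = 0.0304). The gluconeogenic gene fbp1, a marker of glucose scarcity, was low at both times and higher at 1 h, with 16.0, 16.0 and 17.4 CPM against 7.63, 8.24 and 10.8 CPM (0.89, adjusted p = 0.000692). Near-identical transporter paralogs may share reads, and how the counting divided them is not given in the sources used here.

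Histone transcripts rose together by small amounts, 9 of 10 genes, with a median log2 fold change of 0.52. The H4 gene hhf2 had 1565, 1427 and 1560.3 CPM at 1 h and 755, 899 and 1027 CPM at 0 h (0.76, adjusted p = 0.000206, edgeR). The H4 gene hhf1 had 1933, 1796 and 1949.6 CPM at 1 h and 1017, 1192 and 1491 CPM at 0 h (0.62, adjusted p = 0.00221). The groups did not overlap for either gene, and 0 h replicate 3 was the highest 0 h library for both. The single H2B gene htb1 did not pass (0.01, adjusted p = 0.936), with 1901, 1839 and 2052 CPM at 1 h and 1887, 1763 and 2091 CPM at 0 h. The count was 9 under every alternative fit. Copies of the H3 and H4 genes are nearly identical and may share reads. Of 27 G1/S genes 5 rose and 2 fell, with a median log2 fold change of -0.11. Over all genes tested 10.1% were higher and 7.63% lower. The cyclin gene cig2 was among those that rose (0.69, adjusted p = 5e-05). The licensing factor gene cdt1 (-0.69, adjusted p = 0.00218) and the kinase gene mik1 (-0.61, adjusted p = 0.000658) fell. In a fit of all 21 libraries 1 of the 27 was higher, and the calls for cig2 (adjusted p = 0.085) and mik1 (0.128) were lost there. Without 0 h replicate 2, 3 of the 27 rose, and without 0 h replicate 1, 4 fell.

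Of 26 genes of mitosis and septation 7 fell and 3 rose, and without 0 h replicate 3 these counts were 9 and 5. Over all genes tested 7.63% were lower and 10.1% higher. The forkhead factor gene fkh2 had 30.4, 30.0 and 30.1 CPM at 1 h and 70.6, 57.6 and 45.6 CPM at 0 h (-0.94, adjusted p = 0.00916, edgeR). The Polo kinase gene plo1 had 34.9, 36.1 and 39.2 CPM at 1 h and 77.2, 60.1 and 49.8 CPM at 0 h (-0.76, adjusted p = 0.00498). The groups did not overlap for either gene, and 0 h replicate 3 was the 0 h library nearest the 1 h values. The cytokinetic ring gene cdc15 stood at -0.67 (adjusted p = 0.000264).

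The cell-surface gene adg1 instead rose, with 364, 367 and 352 CPM at 1 h and 118, 119 and 179.6 CPM at 0 h (1.38, adjusted p = 1.49e-05, edgeR). Its relative adg3 (0.64, adjusted p = 0.0064) and the glucanase gene agn1 (0.41, adjusted p = 0.037) rose as well. For adg1 the groups did not overlap, and 0 h replicate 3 was the highest 0 h library. The call for agn1 was lost when any library other than 0 h replicate 3 was left out, with adjusted p between 0.0746 and 0.141.

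Stress genes moved in both directions, beside 10.1% higher and 7.63% lower over all genes tested. Of 27 core stress genes 5 rose and 5 fell, with a median of 0.04, and the higher count was 9 without 0 h replicate 3 and 3 without 0 h replicate 2, while the lower one was 3 without 1 h replicate 1. The pyridoxal reductase gene plr1 had 1207, 1288 and 1185 CPM at 1 h and 488, 529.5 and 741 CPM at 0 h (1.07, adjusted p = 0.000105, edgeR), and the quinone reductase gene obr1 stood at 0.77. The gene rds1 had 377, 499 and 438 CPM at 1 h and 681, 645 and 992 CPM at 0 h (-0.82, adjusted p = 0.00218). In both, 0 h replicate 3 was the highest 0 h library, on the side of the 1 h values for plr1 and away from them for rds1. Of 24 chaperone genes 7 rose and 1 fell, and 4 rose without 1 h replicate 2 or 0 h replicate 2. The DnaJ gene mas5 had 1206, 1210.3 and 1173 CPM at 1 h and 691, 739 and 859 CPM at 0 h (0.65, adjusted p = 0.000138), and was lower again at 2 h (-0.44 against 1 h, adjusted p = 0.00455). In all, 11 of the 24 chaperone genes were lower at 2 h than at 1 h and none was higher.

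Few genes of cytosolic ribosomal proteins passed at this time. Of 138 cytosolic ribosomal protein genes 1 rose and 2 fell, with a median log2 fold change of -0.01, although 14 were higher and 6 lower without 0 h replicate 3. Of 62 ribosome biogenesis genes 6 rose and 2 fell (median 0.02), and 12 were higher without that library. Over all genes tested 10.1% were higher and 7.63% lower. Genes of glycolysis and fermentation had 6 of 17 higher and 1 lower. The count of 6 was 2 with all 21 libraries in the fit and 4 with the 6 compared. It was 7 without 0 h replicate 3 and 4 when any other compared library was left out. The phosphoglycerate kinase gene pgk1 had 5317, 5724 and 5877 CPM at 1 h and 3805, 3833 and 4291 CPM at 0 h (0.50, adjusted p = 0.000678, edgeR), and the minor pyruvate decarboxylase gene pdc201 stood at 1.10 (adjusted p = 0.00031). Respiration and the TCA cycle had 1 of 34 genes higher and 4 lower, with a median of 0.04. Without 0 h replicate 3, 15 of the 34 were higher, and without 1 h replicate 3 none was lower.

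Among amino acid biosynthesis genes 7 of 51 rose and 3 fell, beside 10.1% higher and 7.63% lower over all genes tested. The count of 7 was 17 without 0 h replicate 3, and 3 without 1 h replicate 1, 1 h replicate 2 or 0 h replicate 2. The 3 that fell were 6 without 0 h replicate 1. The homocysteine synthase gene met17 had the largest rise of the list, with 309, 330.0 and 296 CPM at 1 h and 178, 172 and 158 CPM at 0 h (0.88, adjusted p = 1.56e-05, edgeR). It was 0.84 lower at 2 h than at 1 h (adjusted p = 6.64e-05), at 175 ± 15.3 CPM against 312 ± 17.2 CPM (SD, n = 3 each). The argininosuccinate lyase gene arg7 fell, with 30.2, 31.3 and 28.5 CPM at 1 h and 69.1, 69.2 and 60.4 CPM at 0 h (-1.14, adjusted p = 3.02e-05). Among 13 thiamine-regulated genes the transporter gene thi9 (0.50) was 1 of 3 that rose and thi7 (-1.24) 1 of 2 that fell. Without 0 h replicate 3, 5 rose, and without 1 h replicate 1, 1 h replicate 2 or 0 h replicate 2, 1 fell.

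Other coding genes with large rises included ecl3, a small gene of a family that extends chronological lifespan, which lies beside pho84. It had 32.2, 27.0 and 33.1 CPM at 1 h and 7.58, 7.17 and 8.90 CPM at 0 h (1.97, SE 0.14, adjusted p = 1.14e-06, edgeR). The But2 family gene SPAC27D7.09c had 35.3, 36.5 and 43.8 CPM at 1 h and 7.18, 6.10 and 17.1 CPM at 0 h (1.93, adjusted p = 0.000678), and its log2 fold change was 2.54 without 0 h replicate 3. The Con-6 family gene SPAC11D3.01c had 33.7, 35.6 and 41.9 CPM at 1 h and 8.24 to 11.4 CPM at 0 h (1.91, adjusted p = 0.000434). None of the 3 overlapped between the times, which the rule for naming genes with large changes required. The F-box gene pof15 stood at 1.33 and the tspO-like gene tsp0 at 1.23.

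Most non-coding RNAs that passed the 2-fold rule, a class in which pseudogenes are counted, were scarce. Of the 37 higher ones 34 averaged under 10 CPM over the 6 libraries, as did 15 of the 24 lower ones. Among those above that level the largest rise was that of SPNCRNA.1276, with 40.3, 36.8 and 43.3 CPM at 1 h and 10.9, 14.7 and 18.7 CPM at 0 h (1.44, adjusted p = 6.41e-05, edgeR). The largest fall was that of SPBPB21E7.08, which the annotation counts as a pseudogene, with 17.1, 19.0 and 18.2 CPM at 1 h and 137, 115 and 106 CPM at 0 h (-2.72, adjusted p = 1.39e-08). The RNA SPNCRNA.935 had 109.8, 132 and 99.1 CPM at 1 h and 381, 417 and 392 CPM at 0 h (-1.80, adjusted p = 1.97e-07). None of the 3 overlapped between the times, which the rule for naming them required.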

How the data were processed

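Per the labels' protocols, libraries came from polyA RNA by the TruSeq stranded kit. Per the submitters' processing notes, the build was ASM294v2 and the tools were DESeq2, HTSeq 0.10.0, SAMtools and HISAT2 2.1.0. The deposited table holds the authors' raw counts per gene, with no row outside genes. The authors' deposited DESeq2 table gives log2 fold changes, adjusted p-values and mean normalized signal columns, per the file headers. It was used for 1 check: it lists 50 genes higher and 90 lower at the same thresholds, and its log2 fold changes differ from those here by a median of 0.00483.

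The analysis of counts used edgeR 4.0.16 (R 4.3.3): filterByExpr, TMM, and a quasi-likelihood fit with 1 mean per group to the 12 wild-type libraries (4 groups, 8 residual degrees of freedom, biological coefficient of variation 0.142), with DESeq2 1.42.0 as an alternative. The mutant libraries were left out because 1 of them was known from earlier results to stand apart. Levels are CPM on TMM-scaled totals. The SE of a log2 fold change is its absolute value over the square root of the quasi-likelihood F statistic. The fit was also run on simulated counts. The receptor genes mam2 (M cells) and map3 (P cells) were first listed under each other's mating type and were moved after the data were seen. Of the 6988 identifiers 6836 matched a locus tag and 3 a synonym in the annotation of build ASM294v3, used for names, types and gene order only, so no coordinates or sequences are given. Members, the 30 lists and their tests were chosen with earlier results of these data known.

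Named genes are the phosphate acquisition genes and their non-coding RNAs, asp1, aps1, siw14 and pqr1, the 12 higher and 12 lower coding genes and 4 higher and 4 lower non-coding RNAs with the largest change (adjusted p under 0.05, mean of at least 10 CPM, no overlap between groups), and up to 5 changed genes per list. List members that did not pass, or were further down a list, are named for their role. The alternatives were other libraries in the fit, DESeq2 and its size factors, coding totals, other filters, a replicate block and each library left out. Some named genes are not reported here.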

Additional observations from a re-analysis of the deposited data

How the results depend on the processing

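The counts of genes past the 2-fold rule changed with the filter on low values: with a mean of at least 10 CPM required, 20 genes were higher (66 otherwise) and 67 lower (102 otherwise), so that the higher genes made up 23.0% of the calls in place of 39.3%. By construction that filter removes scarce non-coding RNAs. With any 1 library left out, 54 to 77 genes were higher and 82 to 111 lower on that rule. At the adjusted p alone the 610 higher genes became 266 with all 21 libraries in the fit, 405 with the 6 compared and 399 with DESeq2 size factors, and 325 to 1061 with 1 library left out, while the 463 lower genes became 264 to 555; the causes were not tested. The replicate block left 58 higher and 104 lower at 2-fold and 445 and 391 at the adjusted p alone. Replicate numbers gave no sign of pairing. Deviations of same-numbered libraries correlated at -0.08, -0.03 and -0.17, and those of differently numbered libraries at -0.09 to 0.14. These values cannot decide whether the cultures were paired. Of the 150 named genes none changed direction under any alternative. Calls changed for 39 with all 21 libraries, 36 without 1 h replicate 1, 30 without 0 h replicate 2, 29 without 1 h replicate 2 and at most 17 elsewhere. Depth limits genes near a floor of 3 counts, which is 0.140 to 0.174 CPM per library for counting error alone.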

Other observations

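Thiamine, biotin and lipid genes were not described above in full. The biotin transporter gene vht1 had 721, 722 and 636 CPM at 1 h and 413, 446 and 417 CPM at 0 h, a log2 fold change of 0.70 (adjusted p = 2.32e-05, edgeR) with no overlap. For the list counts that follow, 10.1% of all genes tested were higher and 7.63% lower. Of 23 lipid synthesis genes 3 rose and 3 fell, and of 25 sterol and hypoxia genes 1 rose and 5 fell. No sterol gene fell without 1 h replicate 1 or 0 h replicate 2, and 9 rose and 3 fell without 0 h replicate 3. The 3 lipid genes that rose were 1 without 1 h replicate 1 or 0 h replicate 2 and 5 without 0 h replicate 3. Of 22 flocculin and cell-surface genes 1 rose and 5 fell, while 9 fell without 0 h replicate 1 and 3 without 1 h replicate 2. Of 17 genes for RNA polymerase II termination 3 rose and 1 fell, but none did without 1 h replicate 1. Of 9 genes of M cells and of the pheromone response they share with P cells, mam1 (-0.43) and byr1 (-0.28) fell, and neither did without 1 h replicate 1, 1 h replicate 3 or 0 h replicate 2. Of 3 P-cell genes map2 fell. Of 19 meiosis genes mei2 fell (-0.79), and rec8, at 0.290 to 0.490 CPM at 1 h and 0.0466 to 0.166 CPM at 0 h, rose by a call that was lost without any one library other than 0 h replicate 3, with adjusted p between 0.0556 and 0.186.

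The gene for the iron-sulfur scaffold protein, isu1, was singled out after its values were seen because its libraries ordered like those of the iron uptake genes. It had 228, 222 and 337 CPM at 1 h and 516, 497 and 578 CPM at 0 h (-1.02, adjusted p = 0.0096, edgeR), with 1 h replicate 3 the highest 1 h library and a call that was lost without 1 h replicate 1 (adjusted p = 0.0526). The spread of the iron uptake genes was not limited to 1 h: fip1 had 134 ± 143 CPM at 2 h and 136 ± 111 CPM at 4 h, against 779.8 ± 88.2 CPM at 0 h (SD, n = 3 each). Also singled out after their values were seen, the neighbouring genes SPAC1039.01, annotated as an amino acid permease, and SPAC1039.02 stood at -2.15 and -1.21, and the dehydrogenase gene SPAC521.03 stood at -1.97 with 658 ± 96.7 CPM at 1 h and 2581 ± 453 CPM at 0 h.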
